A study of Mus musculus with 12 samples.

Results

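NT-ESCs are embryonic stem cell lines made by moving the nucleus of a somatic cell into an oocyte. Here they were compared with the mouse embryonic fibroblasts (MEFs) that supplied such nuclei, to ask which miRNAs differ between the donor cell type and the pluripotent cells obtained through the oocyte. A miRNA was taken into the comparison when its deposited value lay above the lowest value of the table in at least 2 of the 3 MEF and 2 NT-ESC libraries, which selected 857 of the 1042 miRNAs listed. Of these, 730 reached 10 reads in at least 2 of the 12 libraries of the series and were tested, while the other 127 never exceeded 13 reads in any of the 5 libraries. At the edge of the rule, 94 miRNAs were above the minimum in exactly 2 of the 5 libraries, and they included miR-295-5p with up to 22937 reads. A further 53 were above it in exactly 1 library and were left out, none with more than 4 reads.

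Both MEFs and NT-ESCs carried the C57B6/129SvJae F1 background. The MEFs were grown in fibroblast medium with 10% FBS. The NT-ESCs were grown in LIF medium with 15% FBS on a layer of irradiated MEFs, so fibroblast RNA could enter their libraries. The series also holds ESCs of line E14 (3 libraries), iPSCs made from MEFs with dox-inducible factors (2) and NT-iPSCs made by transferring an iPSC nucleus (2). The replicates of each type were batches of RNA from 1 line, so the spread between them, and every p value, covers neither other lines nor other nuclear transfers.

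The authors deposited variance stabilized (VST) values on a log2 scale. These could be inverted to whole reads, which numbered 7867514 to 8608689 per MEF library and 6236953 to 7567263 per NT-ESC library. Levels are given below as normalized reads, the recovered reads divided by the size factor of the library, and differences as the mean VST value of NT-ESCs minus that of MEFs in log2 units. The VST compresses differences at low reads. Adjusted p values come from limma on the VST values, with the Benjamini-Hochberg method over 732 miRNAs and a threshold of 0.05. Counting noise alone did not account for the spread of replicates, whose chi-square divided by its degrees of freedom was 59.4 between the NT-ESC libraries and 133 to 388 between MEF libraries.

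The NT-ESC, iPSC and NT-iPSC libraries stood apart from the MEF and ESC libraries in the balance between both arms of a hairpin. Of 263 hairpins with both arms tested, 192 (73%) differed in arm balance between NT-ESCs and MEFs and 194 (73.8%) between NT-ESCs and ESCs, 83 (31.6%) of them toward 5p and 111 (42.2%) toward 3p, but 62 (23.6%) between ESCs and MEFs. Counts for iPSCs were 188 (71.5%) against MEFs and 197 (74.9%) against ESCs, and those for NT-iPSCs 195 (74.1%) and 193 (73.4%). Between NT-ESCs and iPSCs none differed by limma after adjustment, where 26 had an unadjusted p under 0.05, and 1 (0.38%) differed between NT-ESCs and NT-iPSCs. Some called hairpins had no read of 1 or both arms in MEFs, as with miR-20b and miR-302d, so their MEF values rest on the floor. Where both arms had at least 100 normalized reads in both groups, 38 of 50 were called between NT-ESCs and MEFs. The set of libraries and the change of cell type therefore cannot be told apart in any comparison of NT-ESCs with MEFs, and no such comparison can be made within 1 set. These sets are read from arm balance alone, as the sample labels name none. Differences between ESCs and MEFs, which lie within 1 set by this measure, are given beside many of the main results. They share the MEF libraries and are set side by side only.

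miRNAs are cut from hairpins by Drosha and Dicer and loaded into Argonaute, where bases 2 to 8, the seed, select target mRNAs. Pluripotent mouse cells are known for the miR-290 and miR-302 clusters, whose shared seed promotes passage from G1 to S phase, and for Lin28, which blocks maturation of the let-7 family. Fibroblasts are known for miR-21, miR-143, miR-145, miR-199 and miR-214, and for miRNAs encoded inside the Hox clusters, which keep a record of body position.

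Mature sequences are those of RefSeq (GRCm38.p6), matched by name for 549 of the 732 tested miRNAs, with the seed in capitals. The first set shares the pluripotency seed AAGUGCU and comes from the miR-290 cluster on chromosome 7 (chr7:3218626-3220841) and from the miR-302 cluster on chromosome 3 (chr3:127545228-127545807), which lies in an intron of Larp7 on the opposite strand.
miR-291a-3p: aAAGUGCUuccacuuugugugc
miR-294-3p: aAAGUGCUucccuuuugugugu
miR-295-3p: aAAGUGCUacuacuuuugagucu
miR-302b-3p: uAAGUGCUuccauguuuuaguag
miR-302d-3p: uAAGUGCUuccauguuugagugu

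The second set shares the seed AAAGUGC, which is the pluripotency seed moved by 1 base. Its members come from 3 related clusters, that of miR-17 on chromosome 14 (chr14:115043671-115044391), that of miR-106a on chromosome X (chrX:52741693-52742567) and that of miR-106b in Mcm7 on chromosome 5 (chr5:138165321-138165818). They are shown because members with this seed moved in opposite directions.
miR-17-5p: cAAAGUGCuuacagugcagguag
miR-20a-5p: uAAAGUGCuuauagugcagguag
miR-106a-5p: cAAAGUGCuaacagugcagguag
miR-20b-5p: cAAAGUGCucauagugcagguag
miR-106b-5p: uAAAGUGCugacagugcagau
miR-93-5p: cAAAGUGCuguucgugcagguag

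The third set comes from the last hairpins of the same 3 clusters and shares the seed AUUGCAC, and all of its members here were higher in NT-ESCs.
miR-92a-3p: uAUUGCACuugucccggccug
miR-363-3p: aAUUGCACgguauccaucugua
miR-25-3p: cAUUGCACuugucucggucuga

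The let-7 members that took most reads in both cell types differ outside the seed only.
let-7f-5p: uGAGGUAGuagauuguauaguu
let-7a-5p: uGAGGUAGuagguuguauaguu
let-7c-5p: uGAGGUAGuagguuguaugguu

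The last set holds miRNAs of MEFs with large losses, the muscle miRNA miR-206 (chr1:20679055-20679076), miR-10b (chr2:74726074-74726096) and miR-196b (chr6:52230129-52230150) of the Hox clusters, and the let-7 partner miR-100 (chr9:41531437-41531458).
miR-206-3p: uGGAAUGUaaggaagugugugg
miR-10b-5p: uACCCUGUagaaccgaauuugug
miR-196b-5p: uAGGUAGUuuccuguuguuggg
miR-100-5p: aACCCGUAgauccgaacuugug

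NT-ESCs differed from MEFs across most of the measured miRNAs. Of 732 tested, 615 (84% of those tested) had an adjusted p under 0.05, 336 (45.9%) higher and 279 (38.1%) lower in NT-ESCs, and 574 of them differed by at least 1. All 615 belong to the 730 members tested. In 659 (90%) the libraries of the 2 cell types did not overlap. ESCs differed from the same MEFs in 578 (79%), 292 (39.9%) higher and 286 (39.1%) lower. Differences reached 5 or more in 103 miRNAs that were higher and 59 that were lower, while the corresponding numbers for ESCs were 69 and 14. The median difference over all 732 was 0.32, and it moved to 0.69 with a TMM-type scaling, 0.02 with upper quartile scaling and 1.22 with total miRNA reads as library size. With the last, 403 were higher and 206 lower, so that 66.2% of the calls were higher instead of 54.6%.

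NT-ESCs also spread their reads over more miRNAs than MEFs. At least 10 reads were found for 526, 527 and 528 miRNAs in the MEF libraries and for 623 and 601 in the NT-ESC libraries, a difference of 85 in the means (exact permutation test, two-sided, p = 0.1, below which 2 libraries against 3 cannot go). With every library thinned to 6236953 reads, the numbers were 493, 504 and 507 against 604 and 601. Without thinning, at least 10 reads were found for 629 and 631 miRNAs in iPSCs, 614 and 620 in NT-iPSCs and 575, 586 and 576 in ESCs. The 10 most abundant miRNAs took 69.1% ± 0.55 (SD, n = 3) of MEF reads and 49.2% ± 0.723 (SD, n = 2) of NT-ESC reads, and 3 miRNAs, all of let-7, were in both lists. In MEFs miR-21-5p alone took 26.4% of the reads, followed by miR-206-3p, miR-143-3p, let-7f-5p, let-7c-5p, let-7a-5p, miR-379-5p, miR-378-3p, miR-541-5p and miR-99b-5p. In NT-ESCs the list ran from let-7f-5p with 11.6% over let-7a-5p, miR-293-3p, miR-290-5p, let-7c-5p, miR-140-3p, miR-669c-5p, miR-25-3p and miR-199a-3p to miR-199b-3p. The last 2 had nearly the same reads. There were 28 miRNAs without a read in MEFs that had at least 10 reads in both NT-ESC libraries, and 6 of the reverse kind. In bulk RNA, fewer cells of a type and less RNA per cell cannot be told apart.

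**Figure D1:**
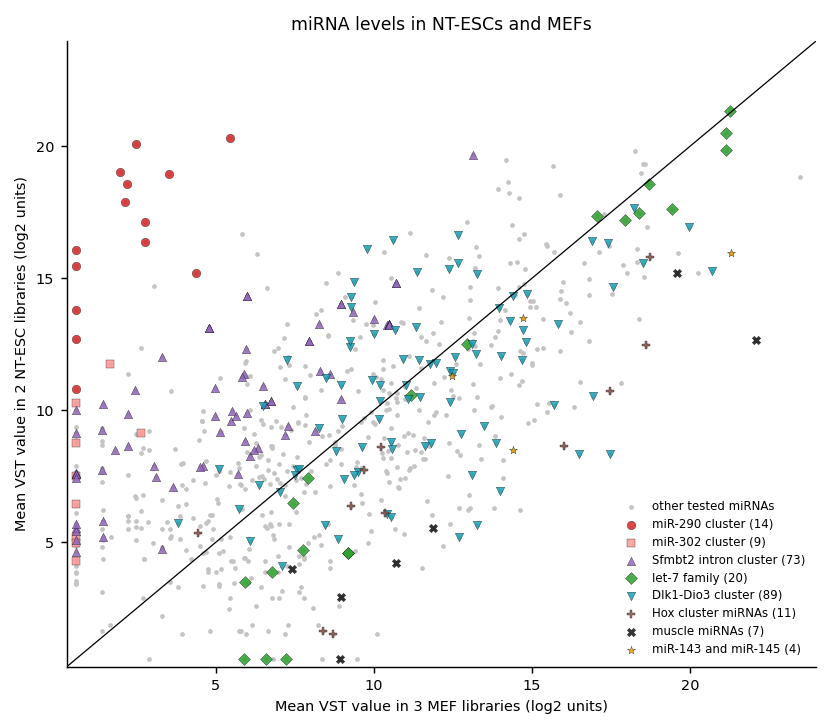
Mean VST value of each tested miRNA in the 3 MEF libraries (x axis, log2 units) and the 2 NT-ESC libraries (y axis, log2 units), with clusters and families in colour, their number of tested miRNAs in parentheses, and a line at equal values. The 14 miRNAs of the miR-290 cluster and the 73 listed by name for the Sfmbt2 intron lie above the line, the 7 muscle miRNAs lie below it, and the 20 of let-7 lie between -6.62 and 0.31 from it.

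The miR-290 cluster went from near absence to 19.6% of all miRNA reads. All 14 tested miRNAs of the cluster were higher in NT-ESCs, against 45.9% over all tested. They were higher by 10.21 to 17.62 (median 14.87, against 0.32 over all miRNAs tested), and 6 of the 14 were at or under 3 reads in every MEF library. The cluster held 0.00125, 8.9e-05 and 8.69e-05% of the reads in the 3 MEF libraries and 19.5 and 19.6% in the 2 NT-ESC libraries, 18.6% in iPSCs, 13.9% in NT-iPSCs and 11% in ESCs on average. The MEF reads were uneven, with 108 in MEF 13 and 7 in each of the others, and all 14 calls held without MEF 13. miR-293-3p was the most abundant, with 35.9, 6.42 and 3.98 normalized reads in MEFs and 327699.6 and 311893 in NT-ESCs (difference 14.87, SE 0.64, adjusted p = 1.38e-09). miR-290-5p, with 2.76, 0 and 1.33 in MEFs against 253938 and 295549.6, was at least 66335-fold higher when MEFs are set to the floor of 3 reads per library. Both were close to the iPSC level, with differences from iPSCs of 0.35 and 0.51.

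The carriers of the AAGUGCU seed printed above, which act on inhibitors of the G1 to S transition, were among them. miR-294-3p had 5.52, 0 and 0 normalized reads in MEFs and 137943 and 120787 in NT-ESCs (difference 17.07, SE 0.95, adjusted p = 1.30e-08). For miR-295-3p the values were 30.4, 1.28 and 0 against 124364 and 121630.1 (difference 15.42, SE 1.29, adjusted p = 4.12e-07). For miR-291a-3p they were 19.3, 1.28 and 2.65 against 10277 and 8309 (difference 10.83, SE 0.71, adjusted p = 5.11e-08). The 5 miRNAs with this seed that had a RefSeq sequence under their name together took 0.000187% of the reads in MEFs, 4.66% in NT-ESCs and 4.3% in ESCs. The 3p strand of miR-291a stood at a difference of 14.25 in ESCs against MEFs and at -3.42 in NT-ESCs against ESCs (adjusted p = 0.00103).

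Several 5p strands of this cluster had no read at all in MEFs. Their MEF values all lie at the table minimum without spread, and they entered the comparison through the NT-ESC libraries alone, so their p values rest on that floor. miR-295-5p rose from 0 to 16715 and 16824 normalized reads (difference 15.48, SE 0.18, adjusted p = 5.16e-14), at least 4049-fold. miR-294-5p rose from 0 to 10855 and 10946 (difference 14.86, SE 0.18, adjusted p = 5.16e-14). miR-291b-5p rose from 0 to 3543 and 3342 (difference 13.20, SE 0.17, adjusted p = 9.39e-14), and its partner miR-291b-3p to 1668 and 1555. The 3p strands of miR-294 and miR-295 are the seed carriers above. The difference of miR-295-5p in ESCs against MEFs was 12.42.

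The miR-302 cluster, which shares the AAGUGCU seed but marks a later, primed state of pluripotency, had reads in NT-ESCs but stayed rare. All 9 tested miRNAs were at or under 3 reads in every MEF library and passed the filter only through the cells where they are high, so their differences, of 3.69 to 10.11 (median 6.51), and their p values rest on that floor. Together they held 0.0304 and 0.0227% of the reads in NT-ESCs against at most 3.72e-05% in a MEF library. miR-302a-5p was the most abundant, with 0, 0 and 2.65 normalized reads in MEFs and 932 and 767 in NT-ESCs (difference 10.11, SE 0.76, adjusted p = 1.56e-07). miR-302d-3p had no read in MEFs and 361 and 252 in NT-ESCs (difference 9.69, SE 0.29, adjusted p = 8.06e-11), at least 74.0-fold more. miR-302b-3p reached 151 and 125 and miR-367-3p, which has another seed, 22.6 and 18.4. The cluster was lower in NT-ESCs than in iPSCs in 5 of the 9, against 13.1% over all tested, among them miR-302d-3p at -2.33 and miR-302a-3p at -2.40.

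The miR-17 cluster and its relatives drive proliferation and are transcribed as single precursors. In the miR-17 cluster 6 of 14 tested miRNAs were higher and 5 lower, shares near the 45.9% and 38.1% over all 732. In the miR-106a cluster 8 of 8 were higher, 3 of them at or under 3 reads in every MEF library, and in the miR-106b cluster 4 of 6 were higher and 2 lower. For ESCs minus MEFs 11 of 14, 8 of 8 and 6 of 6 were higher and none was lower, against 39.9% and 39.1% over all tested.

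Among the AAAGUGC sequences printed above, those of the miR-17 and miR-106b clusters fell. miR-20a-5p had 26563, 22250.1 and 20572 normalized reads in MEFs and 2664 and 2453 in NT-ESCs (difference -3.17, SE 0.25, adjusted p = 2.67e-07). miR-17-5p had 18650.5, 15625 and 16599 against 4279.8 and 3992 (difference -2.03, SE 0.15, adjusted p = 1.09e-07), and miR-18a-5p fell by 2.95. miR-93-5p and miR-106b-5p were at -1.13 and -1.05, and both lost their call with total reads as library size. In ESCs against MEFs the same miR-20a-5p and miR-17-5p stood at 1.20 and 1, with the opposite sign. Of the other strands of the cluster, miR-92a-1-5p rose by 2.43 and miR-19a-3p fell by 2.64. miR-19a-5p, with at most 1 read in a MEF library, was at least 13.1-fold higher.

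The members of the X-linked miR-106a cluster with the same seed rose. miR-20b-5p went from 73.2, 79.6 and 80.8 normalized reads to 3665 and 3328 (difference 5.48, SE 0.15, adjusted p = 5.32e-11) and miR-106a-5p from 44.2, 24.4 and 35.8 to 1932 and 1462 (difference 5.61, SE 0.25, adjusted p = 2.01e-09). Of its last hairpin, miR-363-5p went from 11, 11.6 and 17.2 to 28344 and 23398, 1948-fold, and miR-363-3p from 26.2, 21.8 and 21.2 to 6033 and 6369.5, 269-fold. The AUUGCAC carriers rose in all 3 clusters. miR-25-3p went from 5612, 3715 and 4274 to 170244 and 184489.8 (difference 5.31, SE 0.20, adjusted p = 4.10e-10) and miR-92a-3p, which the miR-17 and miR-106a clusters both encode, from 3984, 5815 and 4838 to 72987 and 75235 (difference 3.94, SE 0.22, adjusted p = 1.11e-08). miR-92a-2-5p, counted by name with the miR-17 list but made from the X-linked copy, had 1 read in each MEF library, under the floor of 3 reads, and 7892 and 5438 normalized reads in NT-ESCs, at least 1609-fold more. It passed the filter only through cells where it is high. The 6 tested miRNAs with seed AUUGCAC that had a RefSeq sequence under their name took 0.0924% of the reads in MEFs, 4.71% in NT-ESCs and 0.434% in ESCs.

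**Figure D2:**
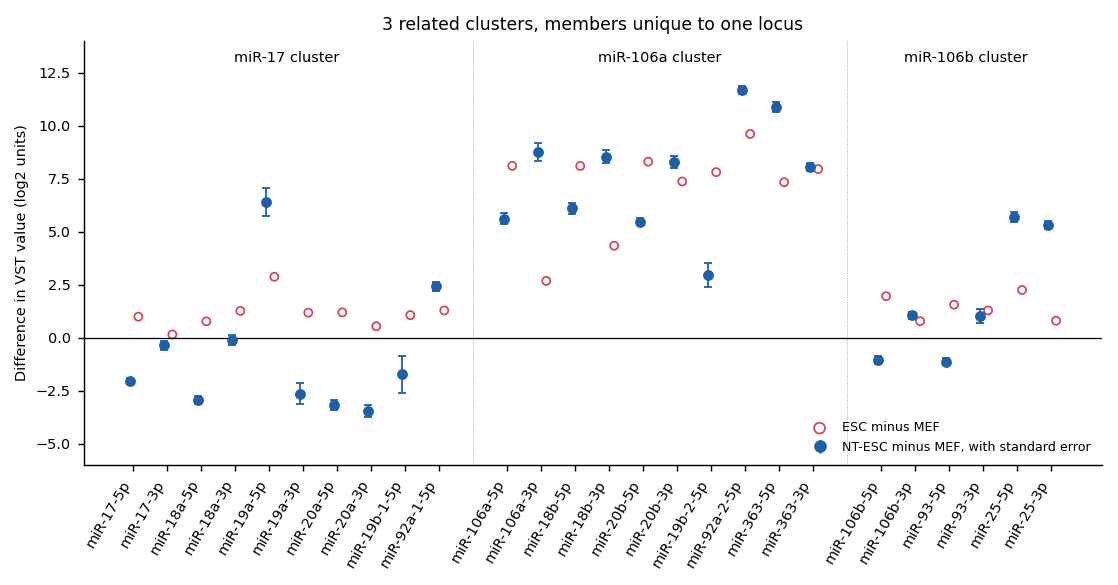
Difference in VST value (y axis, log2 units) for the miRNAs unique to 1 of 3 related clusters (x axis, in order of their hairpins), where filled points are NT-ESCs minus MEFs with the limma standard error and open points ESCs minus MEFs. In the miR-17 cluster 2 filled points, miR-19a-5p and miR-92a-1-5p, lie above 0 and the others below it, while the open points lie above 0, as do all points of the miR-106a cluster.

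The list with most members that rose holds the rodent miRNAs named for the cluster in an intron of Sfmbt2, a Polycomb gene. It was set by name alone, and its few hairpins with a position in RefSeq lie on chromosomes 3, 7 and 9, none of them in Sfmbt2. All 73 tested miRNAs named miR-297, miR-466, miR-467 or miR-669 were higher in NT-ESCs, by 1.10 to 9.43 (median 4.42). Over all 732 tested 45.9% were higher, with a median of 0.32. With upper quartile scaling 72 of the 73 were higher. At or under 3 reads in every MEF library were 23 of them, which passed the filter only through cells where they are high. In addition, 15 of the 73 shared identical reads with another name, so that single loci are uncertain. The group held 0.0511, 0.0605 and 0.0659% of the reads in MEFs and 4.57 and 5.25% in NT-ESCs, 8.82% in iPSCs, 2.69% in NT-iPSCs and 0.601% in ESCs. Most of this was miR-669c-5p, with 1922, 2155 and 2470.5 normalized reads in MEFs and 183499 and 221203 in NT-ESCs (difference 6.54, SE 0.19, adjusted p = 5.87e-11), whose difference in ESCs against MEFs was 2.34. miR-669a-3p rose 33.2-fold, from 115, 122 and 127 to 4055 and 3993. miR-467a-3p and miR-467d-3p, with the same reads, rose 304-fold to 4792 and 5284.

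The X-linked cluster from miR-465 to miR-880, known from testis, was scarce in both cell types. Of 27 tested, 22 were at or under 3 reads in every MEF library and passed the filter only through cells where they are high. The 25 called higher (23 with upper quartile scaling) are therefore a description, and over all tested 45.9% were called higher. The median difference of the cluster was 4.22, against 8.32 in ESCs. The cluster held 0.0188 and 0.0226% of the NT-ESC reads and 0.44% of the ESC reads. miR-470-5p reached 111 and 156 normalized reads in NT-ESCs and miR-465c-5p 134 and 151, against at most 4.14 in a MEF library.

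The let-7 family, which Lin28 holds low in embryonic stem cells, kept its most abundant members in NT-ESCs. No tested let-7 miRNA was higher and 14 of 20 were lower, against 45.9% and 38.1% over all tested. The median difference of the family was -1.11. With a TMM-type scaling 9 were lower, and with total reads as library size 4 were higher and 6 lower. Against MEFs, ESCs had all 20 lower (39.1% over all tested), with a median of -2.91. let-7f-5p, the most abundant miRNA of NT-ESCs, had 631944, 579455 and 634383 normalized reads in MEFs and 639848 and 659971 in NT-ESCs (difference 0.08, SE 0.16, adjusted p = 0.645), and the difference became 1.03 with total reads as library size (adjusted p = 2.03e-05) and -0.32 with upper quartile scaling. let-7a-5p had 531957, 528826 and 617245 against 351128 and 378769 (difference -0.61, SE 0.18, adjusted p = 0.00805), a call that was lost with the TMM-type scaling and whose sign turned with total reads. let-7c-5p had 570042, 525385 and 588687 against 227884 and 234595 (difference -1.28, SE 0.18, adjusted p = 4.15e-05), a call that was lost with total reads. As a share of reads the family stood at 18.3, 20.6 and 21.8% in the MEF libraries and 27.0 and 26.9% in the NT-ESC libraries, with 33.6% in NT-iPSCs, 10.5% in iPSCs and 7.76% in ESCs. The share was higher and the normalized level lower in NT-ESCs, since the former is relative to all reads and the latter to the size factors. The difference in share, 6.69 percentage points, was 1.36 with the most abundant miRNA of each group left out of the total and turned to -4.85 with the 10 most abundant left out. Of the 3p strands, let-7a-2-3p, let-7c-1-3p and let-7g-3p had no read in NT-ESCs. The 5p to 3p balance moved toward 5p for let-7g (4.40) and let-7i (3.35) but did not pass the test for let-7b, let-7d and let-7e. The size of the shift in let-7g is set by the floor, and let-7i-3p had only 4.37 and 7.36 normalized reads in NT-ESCs.

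The partners of let-7 in shared clusters, miR-99, miR-100 and miR-125, were lower in 11 of 11 (7 of 11 with total reads), against 38.1% over all tested. Their differences ran from -6.22 to -0.92. ESCs were also lower than MEFs in 11 of 11, against 39.1% over all tested, with differences from -4.69 to -1.20. The group held 2.69% of the reads in MEFs, 0.717% in NT-ESCs and 1.43% in ESCs. miR-100-5p fell from 20159, 20113 and 20374 normalized reads to 262 and 279 (difference -6.22, SE 0.14, adjusted p = 1.08e-11), 74.7-fold, and miR-99b-5p from 145360.1, 220185 and 243670.3 to 15156 and 16028. miR-125b-5p fell less, from 44045, 35943 and 50729 to 17316 and 20364 (difference -1.20, SE 0.17, adjusted p = 3.99e-05). miR-125a-5p, at -0.92, turned sign with total reads.

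**Figure D3:**
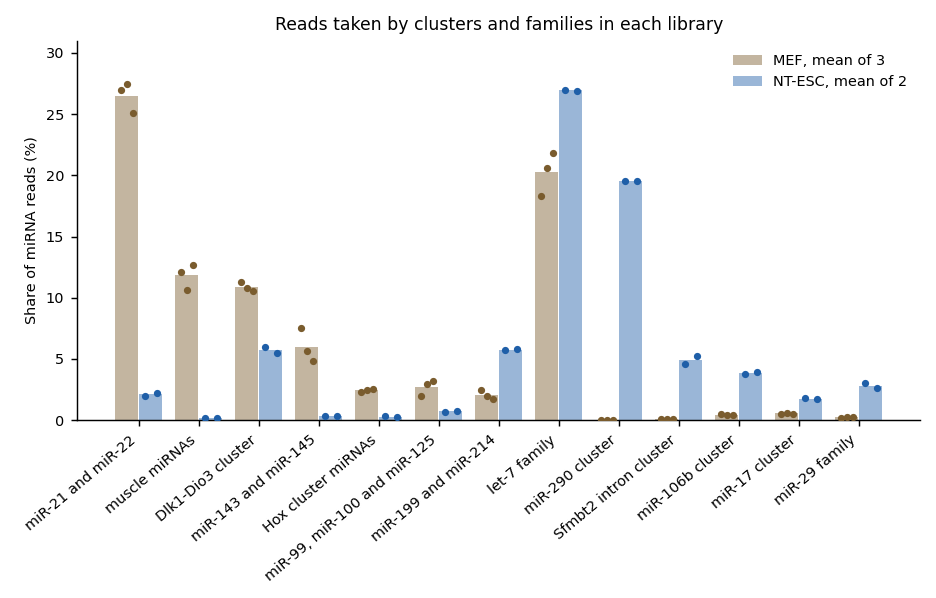
Share of miRNA reads (y axis, percent) held by clusters and families (x axis) in each library, where bars are group means and points the 3 MEF and 2 NT-ESC libraries. miR-21 with miR-22 and the muscle miRNAs fell from 26.5% and 11.8% to 2.09% and 0.191% of the reads, and the miR-290 cluster rose to 19.6%.

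Of 25 lists compared by their share of reads, 24 had shares that did not overlap between MEF and NT-ESC libraries, near the 90% of single miRNAs without overlap (exact permutation test, two-sided, p = 0.1, and 0.104 after Benjamini-Hochberg adjustment over the 25). The blood and endothelial list was the exception (exact permutation test, p = 0.6).

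Several miRNAs of fibroblasts fell, but the share of miR-199 and miR-214 was higher in NT-ESCs. miR-21-5p, which is anti-apoptotic and abundant in somatic cells, had 3195306, 2763504 and 2664458 normalized reads in MEFs and 105636 and 121243 in NT-ESCs (difference -4.66, SE 0.17, adjusted p = 3.51e-10), 25.3-fold lower. With miR-22 it held 27.0, 27.5 and 25.1% of the MEF reads and 1.99 and 2.19% of the NT-ESC reads, and its difference in ESCs against MEFs was -2.18. miR-22-3p fell by 1.19, without a call when total reads were used.

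miR-143 and miR-145, which are made from 1 precursor in smooth muscle and fibroblasts, went from 7.53, 5.66 and 4.81% of the reads to 0.334 and 0.345%. Of their strands 4 of 4 were lower (2 of 4 with TMM-type scaling or total reads), against 38.1% over all tested. miR-143-3p had 884462, 555598 and 499877 normalized reads in MEFs and 14440.3 and 16663 in NT-ESCs (difference -5.34, SE 0.24, adjusted p = 2.17e-09). The loss in ESCs against MEFs was -1.47. miR-145-3p went from 4319, 6143 and 5573 to 73.6 and 103, 60.5-fold lower. Of the miRNAs within the Hox clusters 10 of 11 were lower and none higher (1 higher with total reads), with a median of -4.24. Over all tested 38.1% were lower and 45.9% higher. In ESCs against MEFs 10 were lower and 1 higher, against 39.1% and 39.9% over all tested, with a Hox median of -2.94. The Hox miRNAs held 2.44% of the reads in MEFs, 0.286% in NT-ESCs and 1.59% in ESCs. miR-10b-5p fell from 44135, 39390.04 and 49063 to 463 and 368 (difference -6.73, SE 0.18, adjusted p = 3.87e-11) and miR-196b-5p from 20519.8, 12974 and 15463 to 91.8 and 102 (difference -7.36, SE 0.19, adjusted p = 3.08e-11). miR-196a-5p went from 106262, 86034 and 101279 to 1336 and 1467, a difference of -6.12 against -0.76 in ESCs. miR-10a-5p kept the highest level, with 14365 and 13633 in NT-ESCs after 102477, 108056 and 107658 in MEFs.

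miR-199 and miR-214, mesenchymal miRNAs encoded within dynamin genes, fell, except for the 3p strands of miR-199. The 5p strand miR-199a-5p fell from 21746, 25228 and 21350.5 normalized reads to 573 and 478 (difference -5.44, SE 0.29, adjusted p = 9.98e-09) and miR-214-3p from 9001, 6176 and 9267 to 739.6 and 879.7 (difference -3.31, SE 0.27, adjusted p = 3.54e-07). miR-199a-3p instead had 128459, 83103 and 78279 in MEFs and 157029 and 165689 in NT-ESCs (difference 0.78, SE 0.21, adjusted p = 0.00498), a call that was lost with upper quartile scaling. Its twin miR-199b-3p had nearly the same reads and lost its call there too. Both names together took 5.73% of the reads in NT-ESCs, so the shares that follow may count the same reads under each name. The group held 2.42, 1.96 and 1.75% of the reads in MEFs and 5.72 and 5.80% in NT-ESCs, 6.29% in NT-iPSCs, 2.06% in iPSCs and 0.37% in ESCs. The NT-ESCs had been grown on irradiated MEFs, and the part of feeder RNA in these values was not tested.

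The MEF libraries carried a strong set of skeletal and cardiac muscle miRNAs, and NT-ESCs did not. The group held 12.1, 10.7 and 12.7% of the MEF reads and 0.192 and 0.190% of the NT-ESC reads. In the group 7 of 7 tested were lower, against 38.1% over all tested. miR-206-3p, which promotes myogenic differentiation, fell from 1273253, 889735 and 1122019 normalized reads to 1691 and 1481 (difference -9.42, SE 0.20, adjusted p = 6.79e-12), 690.4-fold. miR-1a-3p went from 162594, 185904 and 232163 to 8876 and 9393 (difference -4.39, SE 0.19, adjusted p = 1.64e-09) and miR-133a-3p from 1133, 796 and 824 to 15.3 and 7.36. miR-133b-5p had 109, 131 and 115 in MEFs and no read in NT-ESCs. In ESCs against MEFs miR-206-3p stood at -9.08 and miR-1a-3p at -7.54.

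Further miRNAs with small p values were high in MEFs and low in NT-ESCs. An ESC minus MEF value is given below for miR-140 only. For the others nothing within 1 set stands beside the difference. miR-28-3p had 52124, 54582 and 61252 normalized reads in MEFs and 493 and 513 in NT-ESCs (difference -6.79, SE 0.13, adjusted p = 4.14e-12), and its other strand miR-28-5p had 12146, 11419.8 and 11280.3 against 284 and 318. miR-155-5p, an immune and stress responsive miRNA, fell from 11738, 11045 and 10618 to 254 and 221 (difference -5.55, SE 0.15, adjusted p = 5.09e-11), and miR-378-3p, which is encoded in a metabolic coactivator gene, from 317097, 284555 and 308513 to 8706 and 9818. miR-140, a cartilage miRNA, again differed by strand. miR-140-5p fell from 6032, 6281 and 5942 to 16.8 and 18.4 (difference -8.38, SE 0.17, adjusted p = 4.95e-12), 346-fold, while miR-140-3p rose from 84098, 66681 and 78094 to 214971 and 233478 (difference 1.56, SE 0.16, adjusted p = 2.72e-06). The ESC minus MEF values of these strands stood at -0.40 and -0.14.

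**Figure D4:**
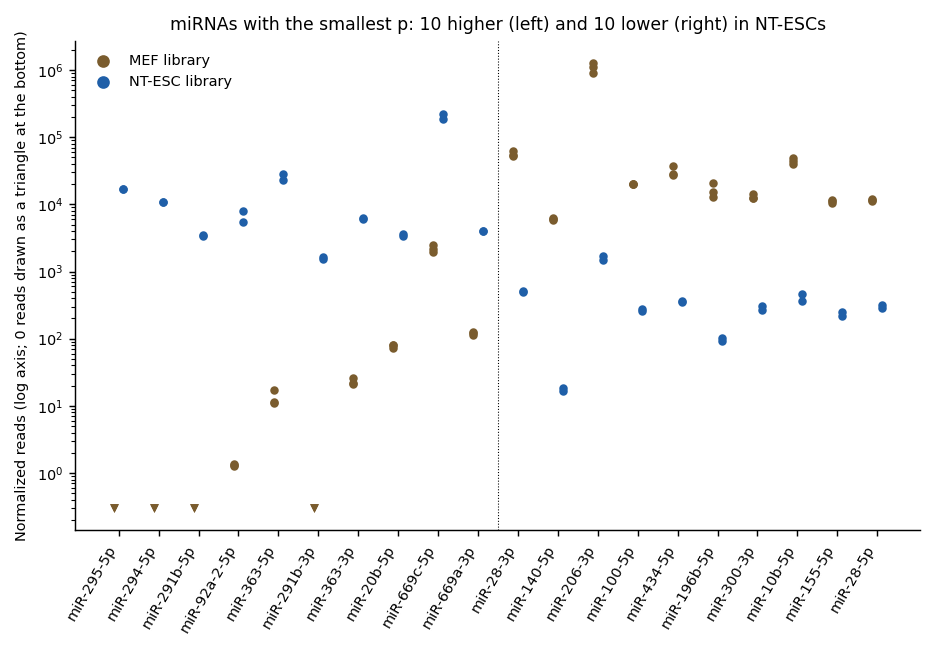
Normalized reads (y axis, log scale) in each MEF and NT-ESC library for the 10 higher and 10 lower miRNAs with the smallest p among called miRNAs whose libraries do not overlap and whose higher group averages at least 1000 normalized reads (x axis). For miR-206-3p the MEF libraries hold between 889735 and 1273253 normalized reads and the NT-ESC libraries 1691 and 1481.

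The imprinted miRNAs of the Dlk1-Dio3 region on chromosome 12 (chr12:109563692-109743795), which are expressed from the maternal allele and whose silencing is known to mark iPSC lines of reduced developmental potential, remained expressed in NT-ESCs but at unequal levels. Of 89 tested, 45 were lower and 27 higher (median -0.54), against 38.1% lower and 45.9% higher over all tested, while with total reads as library size 30 were lower and 42 higher. ESCs compared with MEFs had 62 lower and 8 higher, against 39.1% and 39.9% over all tested. The region held 11.2, 10.8 and 10.6% of the reads in MEFs and 6 and 5.45% in NT-ESCs, 15% in iPSCs, 7.69% in NT-iPSCs and 11.2% in ESCs. miR-379-5p fell from 507707, 346719.9 and 406067 normalized reads to 9077 and 10278 (difference -5.43, SE 0.23, adjusted p = 1.20e-09) and miR-541-5p from 231994, 281839.6 and 244383 to 34097 and 27162 (difference -3.05, SE 0.19, adjusted p = 3.17e-08). miR-127-3p, which lies opposite Rtl1, had 113247, 55809.5 and 64326 against 51084 and 50642 (difference -0.54, SE 0.29, adjusted p = 0.103), and its sign turned with total reads. miR-434-5p fell from 37438, 28583 and 27079 to 357 and 359 (difference -6.42, SE 0.15, adjusted p = 1.60e-11), while miR-434-3p from the same hairpin had 35915, 46314 and 44606 against 19438 and 20764. miR-300-3p fell from 14319.5, 12314 and 12588 to 312 and 265 (difference -5.50, SE 0.14, adjusted p = 3.08e-11). In NT-ESCs 53 of the 89 were lower than in iPSCs and none was higher, against 13.1% lower and 12.6% higher over all tested. With total reads as library size, 173 of all tested were lower and 58 higher in that comparison.

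Imprinted miRNAs elsewhere were lower in 4 of 6 and higher in none, against 38.1% and 45.9% over all tested (3 of 6 with total reads and 5 of 6 with upper quartile scaling). miR-335-5p from Mest fell from 15645, 23261 and 17855 normalized reads to 1909.97 and 1959.99 (difference -3.27, SE 0.21, adjusted p = 3.53e-08) and miR-483-5p from Igf2 from 4767, 9265 and 8905 to 188 and 170.2 (difference -5.35, SE 0.38, adjusted p = 1.13e-07). miR-675-3p from H19 had 87.0, 96.3 and 61.0 in MEFs and no read in NT-ESCs.

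Epithelial miR-200 miRNAs, which repress Zeb1 and Zeb2, were higher in 6 of 9 and lower in none, against 45.9% and 38.1% over all tested, and 2 of the 9 were at or under 3 reads in every MEF library. miR-200a-3p rose from 128, 123 and 147 normalized reads to 4976 and 4901 (difference 5.21, SE 0.16, adjusted p = 1.10e-10), whereas miR-200c-3p had 1153, 753 and 1302 against 1186 and 1692 (difference 0.44, SE 0.28, adjusted p = 0.157). ESCs exceeded MEFs in 9 of 9, against 39.9% over all tested. The miR-183 cluster, which took 21% of the ESC reads, held only 0.458 and 0.428% in NT-ESCs and 0.184, 0.214 and 0.201% in MEFs. Its miR-182-5p had 12409, 10793 and 10162 normalized reads in MEFs and 18948 and 18663 in NT-ESCs (difference 0.76, SE 0.13, adjusted p = 2.08e-04). miR-183-5p fell from 9214, 10499 and 10959.5 to 2960.05 and 2579 (difference -1.88, SE 0.13, adjusted p = 9.06e-08), and the differences of both from ESCs were -5.16 and -7.61. Of the other 4 members, miR-96-5p and miR-183-3p rose by 3.27 and 4.42, and miR-96-3p and miR-182-3p were at or under 3 reads in every MEF library.

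The miR-29 family, which targets collagens and DNA methyltransferases, is shown because 3 strands with 1 seed behaved differently.
miR-29a-3p: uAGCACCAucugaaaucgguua
miR-29b-3p: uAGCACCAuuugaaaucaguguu
miR-29c-3p: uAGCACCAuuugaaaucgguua
miR-29a-3p rose from 13239, 12649 and 12085 normalized reads to 159486 and 142643 (difference 3.58, SE 0.17, adjusted p = 2.67e-09) and miR-29c-3p from 33.1, 25.7 and 30.5 to 1305 and 1251 (difference 5.40, SE 0.21, adjusted p = 5.53e-10). miR-29b-3p had 5255, 10364 and 8297 against 4396 and 4317 (difference -0.82, SE 0.23, adjusted p = 0.00693), a call that was lost with the TMM-type scaling and whose sign turned with total reads. In ESCs against MEFs the 3 strands stood at -1.57, -0.13 and -1.87.

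Strands also diverged in paired somatic miRNAs. miR-221-3p and miR-222-3p, which target the inhibitor p27, rose, miR-221-3p from 10221, 5233 and 5735 normalized reads to 26298 and 25061 (difference 1.93, SE 0.30, adjusted p = 8.75e-05), while miR-221-5p fell from 6554, 8065 and 9441 to 864 and 846. Among miR-23, miR-27 and miR-24, 4 of 11 were higher and 7 lower, against 45.9% and 38.1% over all tested. miR-23a-3p rose from 2373, 2073 and 2591 to 18540.01 and 17384 and miR-24-3p fell from 99027, 98891 and 83383 to 7683 and 8991. Of the p53-linked miR-34 and miR-449, 6 of 8 were higher, against 45.9% over all tested, with 1 of the 8 at or under 3 reads in every MEF library. The 1 that was lower was miR-34c-5p, with 127107, 88211 and 87239 in MEFs and 30722 and 30477 in NT-ESCs.

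Markers of other lineages stayed below 1% of the reads in all 5 libraries. Neural miRNAs were higher in 5 of 11 and lower in 5, near the 45.9% and 38.1% over all tested. miR-124-3p rose from 127, 78.3 and 143 normalized reads to 8056 and 10292 (difference 6.33, SE 0.41, adjusted p = 4.65e-08) and miR-9-5p fell from 18234, 13418 and 13399.5 to 1219 and 1141 (difference -3.65, SE 0.16, adjusted p = 1.31e-09). Blood and endothelial miRNAs were higher in 4 of 12 and lower in 8, against the same 45.9% and 38.1%. The endothelial miR-126-3p fell from 1618, 1137 and 1221 to 11.7 and 12 (difference -6.71, SE 0.49, adjusted p = 1.30e-07) and the haematopoietic miR-142-3p from 1706, 1717 and 1563 to 85.3 and 69.0, with E14 ESCs above MEFs for both, by 1.75 and 2.10. Both tested liver and pancreas miRNAs were higher, miR-122-5p from 519, 375 and 465 to 2505 and 2507.

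The strands of many hairpins parted ways between MEFs and NT-ESCs, as they did between MEFs and the other reprogrammed cells. Each hairpin yields a 5p and a 3p strand, of which usually 1 is kept, and their ratio was compared as the VST value of 5p minus that of 3p. The ratio shifted toward 5p in 81 of 263 hairpins (30.8%) and toward 3p in 111 (42.2%) between MEFs and NT-ESCs, with a median absolute difference of 2.36 over all 263. Between MEFs and ESCs the numbers were 31 (11.8%) and 31 (11.8%), with a median of 0.68. Against MEFs, the balance differed in 188 hairpins (71.5%) in iPSCs and in 195 (74.1%) in NT-iPSCs. This shift cannot be told apart from the set of libraries. Both strands were called in opposite directions in 39 of the 263 hairpins in NT-ESCs against MEFs and in 6 in ESCs against MEFs. Where both strands had at least 100 normalized reads in both groups, 38 of 50 hairpins were called in the fit over all 263. The following hairpins belong to the 10 named by p value, 5 for each direction, with the mature 5p and 3p strands in capitals (RefSeq, GRCm38.p6).
Mir434: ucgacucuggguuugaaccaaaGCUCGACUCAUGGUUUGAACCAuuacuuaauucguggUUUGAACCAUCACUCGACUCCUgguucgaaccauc
Mir423: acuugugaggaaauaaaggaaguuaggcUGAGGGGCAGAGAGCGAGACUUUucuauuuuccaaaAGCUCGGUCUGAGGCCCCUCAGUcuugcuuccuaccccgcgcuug
Mir199a-1: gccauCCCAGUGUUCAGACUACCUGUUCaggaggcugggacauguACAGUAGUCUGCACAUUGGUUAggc
They lie at chr12:109594506-109594599, chr11:77078064-77078172 and chr9:21496495-21496564 (the plus strand, the minus strand and the minus strand). miR-199a has a further hairpin on chromosome 1 with the same mature strands.

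For miR-434 the 5p minus 3p value was 0.06, -0.70 and -0.72 in MEFs and -5.76 and -5.85 in NT-ESCs (difference -5.36, SE 0.30, adjusted p = 1.50e-07). For miR-199a it was -2.56, -1.72 and -1.87 in MEFs and -8.10 and -8.43 in NT-ESCs (difference -6.21, SE 0.45, adjusted p = 1.17e-06). For miR-423 it was 0.56, 0.76 and 1.05 in MEFs and 5.81 and 5.68 in NT-ESCs (difference 4.96, SE 0.27, adjusted p = 1.50e-07). The first 2 turned toward 3p and the last toward 5p, while in ESCs against MEFs the differences were 0.54, -0.04 and 0.64, none of which passed the threshold. Others that turned toward 5p were miR-299 (difference 4.31, SE 0.31, adjusted p = 1.15e-06), miR-377 (4.31), miR-674 (3.23) and miR-296 (5.37). Toward 3p went miR-379 (difference -5.58, SE 0.30, adjusted p = 1.21e-07), miR-329 (-4.56) and miR-322 (-4.35). Of these 10, miR-322 alone passed the threshold in ESCs against MEFs, in the other direction (1.49). The mean in iPSCs was -5.90 for miR-434, against -5.81 in NT-ESCs, and 0.54 for miR-296, against 1.77.

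**Figure D5:**
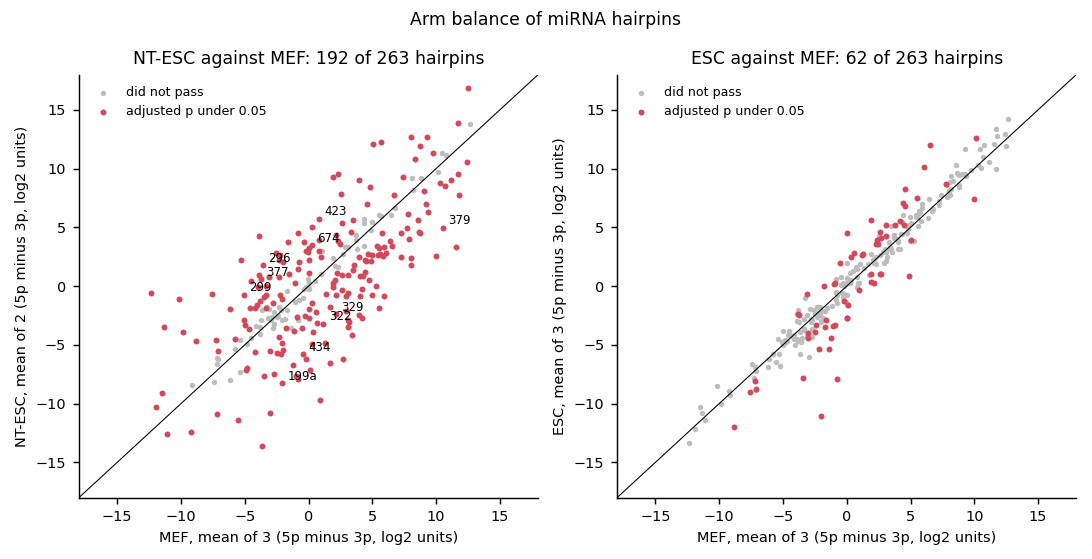
VST value of the 5p strand minus that of the 3p strand (log2 units) for 263 hairpins in MEFs (x axis, mean of 3 libraries) against NT-ESCs (left, y axis, mean of 2) and ESCs (right, y axis, mean of 3), with a line at equal values. The 192 called hairpins at left scatter far to both sides of the line, and the 62 called at right lie closer to it.

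Some features of the sequences moved with the differences. Among the 549 tested miRNAs with a RefSeq sequence, those that end in A had a median difference of 1.23 (n = 111) and those that end in C, G or U had -0.93 (n = 115), -0.87 (n = 120) and -0.03 (n = 203). In ESCs against MEFs the 4 medians were 0.52, -0.58, -0.40 and -0.43. By first base the medians in NT-ESCs ran from -0.72 for C to 0.46 for A. By GC content, cut into 4 groups, they lay between -0.47 and 0.08, without an order. These are descriptions over miRNAs, which share loci and are not replicates. Shares by seed cover these 549 only, which leaves out miR-21-5p, the most abundant miRNA of MEFs. Among them GAGGUAG of let-7 took 20.2% of the reads in MEFs and 26.9% in NT-ESCs. GGAAUGU of miR-206 went from 10.01% to 0.0282%, GUGCCGC of miR-293 from 0.000134% to 5.69%, and AGCACCA of miR-29 from 0.192% to 2.79%.

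NT-ESCs were also compared with iPSCs, whose libraries fall in the same set by arm balance. The test called 188 (25.7%) of the 732, with 92 (12.6%) higher and 96 (13.1%) lower in NT-ESCs, and 111 or 103 did without NT-ESC 71 or NT-ESC 72. With total reads as library size 231 differed, 58 higher and 173 lower. let-7 was higher in 13 of 20 and lower in none, as with let-7f-5p (1.89) and let-7b-5p (2.05). All 6 of miR-199 and miR-214, 3 of 4 of miR-143 and miR-145 and 6 of 11 of the Hox miRNAs were also higher, as with miR-143-3p (1.33) and miR-10b-5p (1.53). The part of feeder cells in these differences was not tested. The 188 differences lay between -2.57 and 2.72.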

How the data were processed

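Small RNA libraries of MEFs, NT-ESCs, iPSCs, NT-iPSCs and ESCs were sequenced, and the authors deposited 1 table of variance stabilized values from DESeq on a log2 scale for 1042 miRNAs in 12 libraries. Per the labels the build was mm8, and the version of DESeq is not given in the sources used here. The table holds no coordinates. Because the values are log2 and not counts, they were tested with limma 3.58.1 in R 4.3.3 (5 group means over all 12 libraries, intensity trend, Benjamini-Hochberg adjustment). The transformation was inverted to recover reads, all whole within 0.0035 of a read. These served for levels, shares, the minimum of 10 reads in 2 libraries and a voom fit. Shares were compared by exact permutation tests with Python 3.11.15 and scipy 1.17.1. Arm balance was fitted by limma on 5p minus 3p for 263 hairpin names.

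Groups came from the sample labels. The text names the 10 higher and 10 lower miRNAs with the smallest p (libraries not overlapping, higher group at 1000 normalized reads or more), the 10 most abundant of each cell type, the main members of each list and 5 hairpins per direction (both arms at 100 normalized reads or more). Members and lists were chosen with earlier results of these data known. Alternatives were other scalings, low-read minima, a pseudocount of 1, voom, fits on the compared libraries only and fits without each library. The scripts were tested on simulated data. Sequences and coordinates are from RefSeq (GRCm38.p6), matched by name, and were not used for counting. Replicates are batches of RNA from 1 line. Standard errors and SDs cover the spread between these batches, and the floor covers counting error only.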

Additional observations from a re-analysis of the deposited data

Results flagged for a closer look

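Of the 152 tested miRNAs chosen by the naming rule, 73 differed between NT-ESCs and iPSCs, that is, their difference from MEFs was unequal in the 2 kinds of reprogrammed cells. Over all 732 tested, 188 (25.7%) differed, 92 higher and 96 lower, and with total reads as library size 58 were higher and 173 lower, so that the balance of directions here depends on the scaling. The difference itself was tested by limma (adjusted p under 0.05), and the MEF libraries cancel from it. The values are NT-ESCs minus iPSCs in log2 units.

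The 47 miRNAs that were higher in NT-ESCs were miR-483-5p (2.13), let-7b-5p (2.05), miR-150-3p (2.04), miR-145-3p (1.93), miR-214-3p (1.90), let-7f-5p (1.89), miR-145-5p (1.88), miR-221-5p (1.87), let-7a-5p (1.86), miR-199a-3p (1.85), miR-199b-3p (1.85), miR-199b-5p (1.75), miR-125b-5p (1.63), miR-196b-5p (1.61), miR-9-3p (1.58), miR-196a-5p (1.55), miR-10b-5p (1.53), miR-214-5p (1.5), miR-10a-5p (1.49), let-7c-5p (1.49), miR-206-3p (1.45), miR-29a-5p (1.44), miR-99a-5p (1.38), miR-9-5p (1.34), miR-143-3p (1.33), miR-199a-5p (1.30), miR-122-5p (1.27), miR-125b-1-3p (1.20), miR-29b-3p (1.19), miR-222-5p (1.18), miR-29a-3p (1.18), let-7e-5p (1.17), miR-100-5p (1.10), let-7g-5p (1.10), miR-106a-5p (1.02), miR-20a-5p (0.95), miR-20b-5p (0.94), miR-196a-1-3p (0.91), miR-92a-2-5p (0.86), miR-29b-1-5p (0.85), miR-295-5p (0.84), miR-182-5p (0.76), miR-23a-3p (0.73), miR-17-5p (0.71), miR-23b-3p (0.70), miR-363-3p (0.66) and miR-183-5p (0.48). Members of let-7, miR-199 and miR-214, miR-143 and miR-145 and the Hox clusters are among them.

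The 26 that were lower in NT-ESCs were miR-302a-3p (-2.40), miR-302d-3p (-2.33), miR-675-5p (-2.27), miR-449c-5p (-2.18), miR-302d-5p (-2.17), miR-367-3p (-2.10), miR-449a-5p (-2.04), miR-375-3p (-1.63), miR-134-5p (-1.58), miR-142-3p (-1.46), miR-300-3p (-1.31), miR-434-3p (-1.22), miR-434-5p (-1.13), miR-465c-3p (-1.12), miR-465b-3p (-1.11), miR-465a-3p (-1.11), miR-142-5p (-1.04), miR-541-5p (-1.02), miR-127-3p (-1.01), miR-411-5p (-1.01), miR-379-5p (-0.97), miR-28-3p (-0.90), miR-22-5p (-0.81), miR-467b-5p (-0.72), miR-467a-5p (-0.72) and miR-21-5p (-0.66). Members of the miR-302 cluster and of the Dlk1-Dio3 region are among them. Both kinds of cells were grown on irradiated MEFs and each came from 1 line, and the part of feeder cells and of the line in these values was not tested.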

How the results depend on the processing

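For the numbers of miRNAs called between NT-ESCs and MEFs, no alternative moved the count by more than 1.5 times. Of the values of single named miRNAs under the alternatives, 2272 kept their direction and side of the threshold, 23 passed it in addition, 27 lost it and 18 turned sign. With total miRNA reads as library size, a setting added after the data were seen, the difference became 0.34 for let-7a-5p, 0.84 for let-7e-5p, 0.033 for let-7g-5p, 0.031 for miR-125a-5p, 0.60 for miR-17-3p, 0.80 for miR-22-5p, 0.13 for miR-29b-3p, 0.41 for miR-127-3p, 0.30 for miR-29c-5p, 0.44 for miR-141-3p and 0.45 for miR-335-3p. The sign also turned for miR-17-3p (0.027), let-7e-5p (0.27) and miR-22-5p (0.23) with the TMM-type scaling, for let-7f-5p (-0.32) with upper quartile scaling, for let-7e-5p without MEF 15 (-0.21 to 0.050 over the libraries left out), for miR-22-5p without MEF 13 (-0.29 to 0.025) and for miR-675-5p without NT-ESC 72 (-0.10 to 0.86). None of these 7 passed the threshold before or after. That setting shifts all differences upward, and changes near 0 follow it. The hairpins called for arm balance fell from 192 to 119 with at least 100 reads in 2 libraries and to 39 when the 50 hairpins with both arms at 100 normalized reads or more in both groups were refitted alone, since fewer hairpins were tested. The miRNAs called between NT-ESCs and iPSCs ranged from 103 to 146 with 1 library left out, against 188, with fewer samples in the fit. The number of miRNAs detected differed by 62.5 at 1 read and by 101 after thinning, against 85 at 10 reads. Differences in read shares (NT-ESCs minus MEFs, percentage points) moved when abundant miRNAs were removed from the total, since they are relative. With the most abundant miRNA of each group removed they were 22.6 for the miR-290 cluster, 5.59 for the Sfmbt2 intron cluster, 0.786 for the miR-106a cluster, 1.36 for let-7, -9.35 for the Dlk1-Dio3 region, -8.45 for miR-143 and miR-145, -3.27 for the Hox miRNAs, -17.2 for the muscle miRNAs and -36.6 for miR-21 and miR-22. With the 10 most abundant removed from both list and total they were 19, 2.64, 1.43, -4.85 (reversed from 6.69), -5.93, -0.307, -8.01, -6.01 and -0.202 in the same order, and 1.79 for the miR-17 cluster. Calls were lost for let-7a-5p without NT-ESC 71, for miR-93-3p and miR-483-3p without NT-ESC 72, for miR-145-5p without MEF 14 or NT-ESC 72, and for miR-143-5p without MEF 13, MEF 15 or either NT-ESC library. No paired analysis was possible because MEF and NT-ESC libraries carry different replicate numbers. The depth of 6236953 to 8608689 reads leaves a floor of 3 reads, or 0.348 to 0.481 CPM, below which levels cannot be told from 0.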
